A study of Mus musculus with 2 samples.

Results

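The 10 genes described here encode subunits of the INO80 chromatin remodelling complex, namely Ino80, Ino80b, Ino80c, Ino80d, Ino80e, Nfrkb, Actr5, Actr8, Mcrs1 and Uchl5. They were chosen as a named list, out of 55413 genes of the annotation, of which 21938 are protein-coding. For each gene, the YY1 ChIP-seq peaks whose summit lay within 1000 bp of one of its transcript starts, the peaks with a summit inside the gene and the nearest summit were taken. A summit is the base of a peak with the most DNA fragments, and a gene with a summit within 1000 bp of a start is said here to have a promoter summit. Of the 10 genes, 5 had a promoter summit (Ino80, Ino80b, Ino80d, Mcrs1 and Uchl5). The other 5 (Ino80c, Ino80e, Nfrkb, Actr5 and Actr8) had no listed summit closer than 67.1 kb.

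INO80 is a large machine that uses ATP to slide nucleosomes and to exchange histone variants, and it acts at promoters, at replication forks and in DNA repair. Ino80 is the motor, the actin-related proteins Actr5 and Actr8 contact the nucleosome and its linker DNA, and the remaining subunits either assist the motor or are found in the animal form of the complex. YY1 is a zinc finger protein that binds a short motif with the core ATGGC, mostly at promoters, and it is itself known as a partner of INO80 in mammalian cells. Muscle stem cells (MuSCs) are the Pax7-positive cells that rebuild muscle fibres after injury.

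The study mapped the genes that YY1 binds in MuSCs of dystrophic mice, to ask how the loss of YY1 raises Ccl5 expression. The paper describes these MuSCs as freshly isolated cells of many Ctrl mdx mice, mixed before the ChIP. The mice had the genotype Pax7 CreERT2/R26YFP; Yy1 +/+; mdx, in which Cre is expressed from the Pax7 locus of MuSCs and both copies of Yy1 are intact, and mdx mice lack dystrophin. Their age at this experiment was not given in the sources used here. The GEO labels instead describe cultured MuSCs, and the text on the design calls them WT. For background, the labels list an input library, the Methods speak of an input that was IgG, and no file of it was used here. Since each antibody has 1 library, there is no spread between mice, no value below carries a replicate error, and the identity of the cells could not be checked from a list of peaks. The list held 4681 peaks in mm10 coordinates, of which 3971 were promoter summits. The window of 1000 bp is a choice made here, since the text of the paper defines no promoter, and its promoter class is not the same as this one.

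The deposited fold enrichment is the number of fragments at the summit plus 1, divided by the local background plus 1. At the 5 bound promoters it ranged from 2.83 at Mcrs1 to 6.39 at Ino80, with a median of 5.54. Over all 3971 promoter peaks, it ranged from 1.81 to 13.4, with a median of 5.13 and quartiles of 4.34 and 6.05. The number of fragments at the summit was recovered from the fold enrichment and the p-value of each peak, and it was between 13 and 21 at the 5 genes, with a median of 16 against 15 over all promoter peaks. Intervals on the fold enrichment are 95% exact Poisson intervals of these fragments with the background held fixed, and they cover counting error only. All 5 intervals overlapped. Overlap does not show that a pair was alike, and the differences between the 5 genes were not tested.

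**Figure D1:**
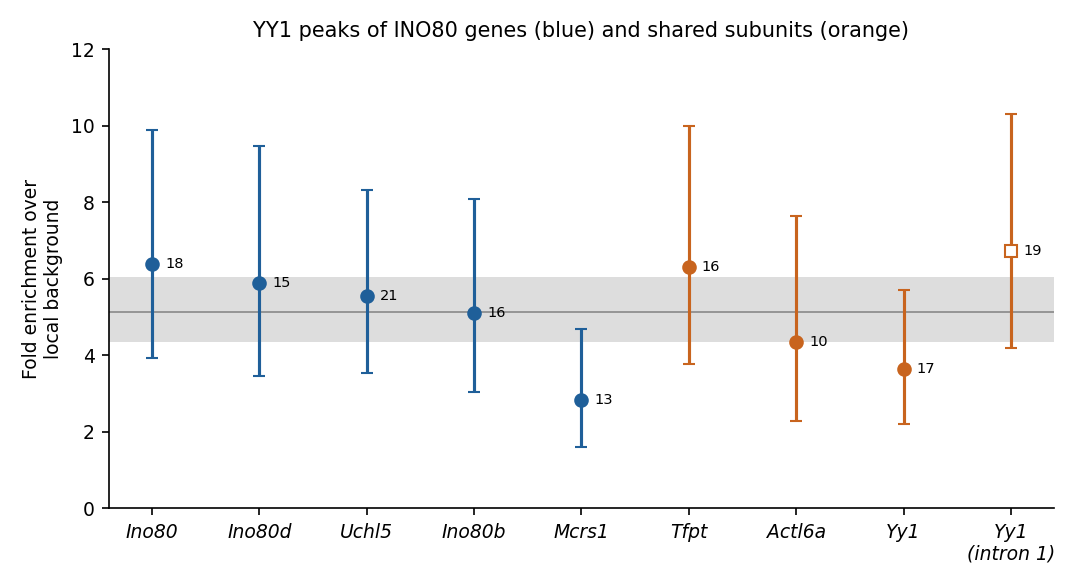
Fold enrichment of the promoter peaks of the INO80 genes (blue circles), of further subunits on a second list, most of them shared with other complexes (orange circles) and of the peak in intron 1 of Yy1 (open square). Error bars are 95% Poisson intervals (counting error only), the printed numbers are fragments at the summit, and the grey band and line give the quartiles and median of all 3971 promoter peaks. Ino80 was highest at 6.39 and Mcrs1 lowest at 2.83 among the INO80 genes.

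Ino80, which encodes the ATPase, spans chr2:119373042-119477687 on the minus strand. Its promoter peak at chr2:119477657-119478055 was 399 bp wide, the widest of the 5, and covered the first start of the gene. The summit, at position 119477843, lay 156 bp upstream of that start and outside every transcript of the gene. It held 18 fragments over a background of 1.98, a fold enrichment of 6.39 (interval 3.92 to 9.90, q = 1.41e-08). Of all promoter peaks, 81.1% had a lower fold enrichment. No other gene started within 1000 bp of the summit, and the next summit on the chromosome was 69.2 kb away. The bases within 50 bp of the summit are shown because they lack the YY1 core at the place of highest signal. They were read from the GRCm38.p6 genome of RefSeq at chr2:119477793-119477893 on the minus strand, 5′ to 3′, with CpG dinucleotides in capitals.
Ino80: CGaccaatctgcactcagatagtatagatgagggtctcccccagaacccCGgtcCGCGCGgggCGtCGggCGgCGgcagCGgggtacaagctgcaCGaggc

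The CCAAT box, the sequence bound by NF-Y, stands close to the 5′ end of that stretch, and Ino80 was the only one of the 5 genes with this motif within 100 bp of its summit, against 16.3% of all promoter summits. ATGGC occurred 3 times within the Ino80 peak, 159 to 183 bp from the summit. A match to the longer YY1 motif AANATGGC, where N is any base and both strands were searched, lay beyond the peak, 121 bp downstream of the first start. It is shown because it was the only match within 1000 bp of an Ino80 start. The 30 bases at chr2:119477551-119477580 on the minus strand have the match in capitals, which reads AAGATGGC on the opposite strand.
Ino80 site: tcagcgccgccGCCATCTTggggtcccagg

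Ino80b encodes a small subunit that stimulates the ATPase. The gene is short, 3.67 kb at chr6:83121765-83125431 on the minus strand, and had starts 402 bp apart. Its peak, chr6:83125126-83125397, was the narrowest of the 5 with 272 bp. The summit, at 83125228, was 199 bp upstream of the inner start and 203 bp downstream of the outer start, in exon 1 of the longer transcript. The peak covered neither start. It had 16 fragments over 2.34 and a fold enrichment of 5.10 (3.04 to 8.09, q = 5.68e-06), close to the median of all promoter peaks, since 47.0% of them were lower. The bases around it were poorer in G and C than at the other members, with 51.2% and 14 CpG within 100 bp of the summit.

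Ino80b was the only one of the 5 genes with AANATGGC inside its promoter peak, against 14.4% of all promoter peaks. The match read AAGATGGC on the strand of the gene, 105 bp from the summit and 98 bp downstream of the outer start. The site is shown with 11 bases before and after it at chr6:83125318-83125347, minus strand, with the motif in capitals.
Ino80b site: gttttgagaacAAGATGGCattaagcctgg

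Ino80d, a subunit of the animal complex, is the longest of the 10 genes, 156 kb at chr1:62958418-63114667 on the minus strand. Its peak, chr1:63114077-63114448, was 372 bp wide. The summit, at 63114315, lay 48 bp upstream of the start that 2 of its 3 transcripts use, and 352 bp downstream of the outermost start, in an intron of that transcript. With 15 fragments over 1.72, the fold enrichment was 5.88 (3.45 to 9.46, q = 7.75e-07), higher than 69.9% of promoter peaks. The same summit was 156 bp from the start of the lincRNA Ino80dos, which runs on the opposite strand and starts 204 bp from the Ino80d start. Peaks carry no strand, so the signal cannot be assigned to either gene.

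The summit sequences of Ino80d and of the next pair of genes are given together because none had the YY1 core within 100 bp of the summit, and they differ in G and C. Each reaches 50 bases to either side of the summit and comes from GRCm38.p6 (RefSeq), 5′ to 3′ on the strand of the gene, with CpG in capitals. The positions are chr1:63114265-63114365 for Ino80d, chr1:143777166-143777266 for Uchl5 and chr15:99251999-99252099 for Mcrs1.
Ino80d: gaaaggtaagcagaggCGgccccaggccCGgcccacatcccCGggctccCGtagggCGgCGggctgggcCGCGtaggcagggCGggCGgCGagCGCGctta
Uchl5: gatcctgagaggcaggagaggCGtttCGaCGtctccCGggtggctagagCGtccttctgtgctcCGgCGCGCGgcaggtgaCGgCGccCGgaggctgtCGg
Mcrs1: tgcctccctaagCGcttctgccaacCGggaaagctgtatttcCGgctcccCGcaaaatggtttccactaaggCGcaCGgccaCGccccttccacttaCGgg

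Uchl5 encodes a deubiquitinase that works both in the INO80 complex and at the proteasome. The gene lies at chr1:143777272-143807466 on the plus strand. Its peak, chr1:143777058-143777337, had the most fragments of the 5, 21, over the local background of 2.97. The fold enrichment was 5.54 (3.52 to 8.33, q = 2.95e-08), higher than 63.9% of promoter peaks. The summit at 143777216 was 56 bp upstream of the first start and 148 bp upstream of Trove2, the gene of the RNA-binding protein Ro60, which is transcribed the other way from a start 204 bp away. The gene Gm29170 also started 426 bp from the summit on the strand of Uchl5. Within 100 bp of the summit, G and C made up 71.1% of the bases, the highest of the 5, with 27 CpG, and the medians over all promoter summits were 70.6% and 23 CpG. Ino80d, with 63.2% and 21 CpG, and Mcrs1, with 57.2% and 18 CpG, were below these medians.

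Mcrs1, a subunit also found in a histone acetyltransferase complex and on the mitotic spindle, had the weakest of the 5 peaks. The gene is at chr15:99242817-99251961 on the minus strand, and the peak at chr15:99251809-99252119. Its 13 fragments stood over a local background of 3.95, above the median of 1.98 over promoter peaks. The fold enrichment was 2.83 (1.60 to 4.69), and only 0.529% of promoter peaks were lower. Its p-value, 6.72e-05, was close to the limit of 0.0001 used to call peaks, and its q was 0.0763, so it was lost at q limits of 0.05 and 0.01, which left 4 genes of 10. The summit at 99252049 was 88 bp upstream of the nearest start and also 213 bp downstream of the start of 1700120C14Rik, a non-coding transcript of the opposite strand whose start lies 125 bp from that of Mcrs1.

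The 5 summits were all upstream of the nearest start of their gene, at 48 to 199 bp with a median of 88 bp. Of all promoter summits, 46.0% were upstream of the nearest start, and their median distance on either side was 95 bp. The direction rests on which start is used. Measured from the outermost start of each gene alone, the median distance was 156 bp, and the summits of Ino80b and Ino80d then fell 203 bp and 352 bp downstream. At Ino80, Ino80d, Mcrs1 and Uchl5, the peak covered a start of the gene.

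**Figure D2:**
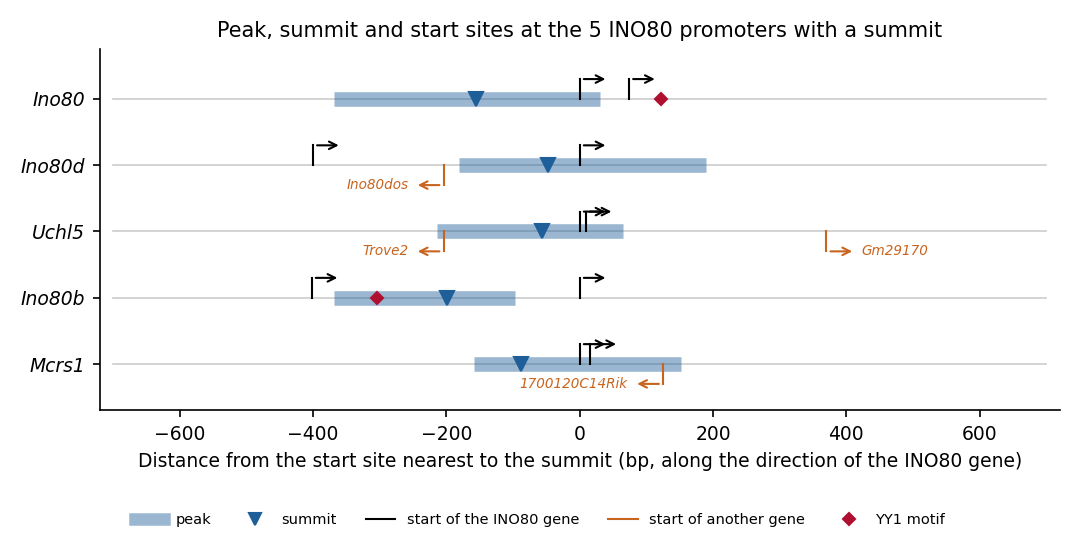
Position of the YY1 peak (blue bar) and its summit (triangle) at the 5 INO80 genes, in bp from the start nearest to the summit and along the direction of the gene. Black arrows are starts of the gene, orange arrows are starts of other genes within 1000 bp of the summit, and red diamonds are matches to AANATGGC. All 5 triangles are left of 0, between 48 and 199 bp upstream, and the match within a peak is at Ino80b.

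None of the 5 summits had AANATGGC within 100 bp on either strand, where the share was 7.35% over all promoter summits. The core ATGGC alone was also absent from these 5 windows and present in 31.0% of all. Within 100 bp of a start, 42.6% of protein-coding genes had ATGGC and 7.68% had AANATGGC, so neither was commoner at promoter summits. A gene was counted if any of its starts had the motif, and these shares were not tested against each other. With 5 summits, a share of 7.35% gives less than 1 summit on average, so the count of 0 says little. Other short motifs were counted in the same windows. CCGGAAG, a sequence bound by ETS factors, was found at Ino80b and Mcrs1 and at 13.2% of all promoter summits. GGGCGG, the SP and KLF site, was found at Ino80 and Ino80d, against 64.8% of all. The NRF1 core CGCATGCG (3.80% of all) and the CREB site TGACGTCA (2.39%) were at none of the 5.

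Of the 10 genes, 50% had a promoter summit (95% exact binomial interval 18.7% to 81.3%). Of all protein-coding genes, 4119 or 18.8% had one (18.3% to 19.3%). All 10 genes have a CpG-rich start, here at least 50% G and C and an observed to expected CpG ratio of at least 0.6 within 250 bp of a start. Of the 11789 protein-coding genes with such a start, 33.6% had a promoter summit. The lower limit of the interval of the 10 genes lay just under the share of all protein-coding genes and well under that of the genes with a CpG-rich start. With the INO80 count still at 5, the share of all protein-coding genes fell to 17.7% within 500 bp, to 17.4% with gene starts alone and to 14.6% from 1000 bp upstream to 100 bp downstream. It was then below the limit, as was the 18.68% with protein-coding transcripts only, against a limit of 18.71%. With the count also at 5, it stayed above the limit within 2000 bp (19.3%) and 5000 bp (20.4%), with RefSeq transcripts (19.1%) and with any base of the peak in the window (18.9%). At q below 0.05 it was 18.4% and at q below 0.01 17.4%, both inside the interval of 12.2% to 73.8% for 4 of the 10 genes. At a fold enrichment of at least 5, it was 11.1%, against 4 of the 10 genes (interval 12.2% to 73.8%). These placings are not a test, since the 10 genes were a named list chosen with earlier results of these data known. A summit inside the gene was present at 2 of the 10, Ino80b and Ino80d, and at 13.7% of protein-coding genes. Both were the promoter summits already described, and none of the 10 genes had a summit in its body outside the promoter windows. Of protein-coding genes, 1.42% had such a summit, so the count of 0 says little.

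At 3 of the 5 bound genes (Ino80d, Mcrs1 and Uchl5), the summit was within 1000 bp of a start of another gene too, which was so for 29.8% of all promoter summits. Head-to-head or overlapping starts on opposite strands were found at 4 of the 10 genes, these 3 and Ino80e, and at 19.4% of protein-coding genes (18.9% to 19.9%). Of the protein-coding genes with such a neighbour, 37.4% had a promoter summit, and of these 4 INO80 genes 3 had one. Ino80 and Ino80b were bound with no start of another gene nearby.

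The 5 genes without a promoter summit included both genes of actin-related proteins among the 10. Another such gene, Actl6a of the list of mostly shared subunits, had a promoter summit. Actr5, the subunit that couples the motor to the nucleosome, is at chr2:158624888-158639211 on the plus strand. Its nearest summit was 143 kb downstream, at the start of Fam83d (fold enrichment 5.52, 13 fragments). Actr8, which binds linker DNA together with actin, is at chr14:29978337-30006354 on the plus strand. It had the most distant nearest summit of the 10, 1151 kb downstream at Smim4 (fold enrichment 4.34, 10 fragments), with 19 starts of other protein-coding genes in between.

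At Actr8, AANATGGC lay 17 bp downstream of the first start, read as AAAATGGC on the opposite strand, and no peak was listed there. Counting matches that lay whole within 100 bp of a start, 2 of the 10 genes had the motif, Ino80 and Actr8, as did 7.68% of protein-coding genes. The match at Ino80b, centred 98 bp from the outer start, ran past that window and was not counted. Of the protein-coding genes with the motif at that distance, 31.8% had a promoter summit, so most genes with it had none. The share was 18.8% over all protein-coding genes and 33.6% over those with a CpG-rich start. The site is shown at chr14:29978339-29978368, plus strand, with the match in capitals, and can be set beside the Ino80 and Ino80b sites above.
Actr8 site: cgccggtggcgGCCATTTTgactgtgggca

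Ino80e, a subunit of the animal complex, is at chr7:126850960-126862377 on the minus strand and shares its promoter region with Hirip3 on the opposite strand. Its nearest summit was 67.1 kb upstream, at Kctd13 (fold enrichment 5.13, 12 fragments). A match to AANATGGC lay 593 bp upstream of its first start, again with no listed peak. Nfrkb, which recruits Uchl5 to the complex, is at chr9:31386192-31421333 on the plus strand. Its nearest summit was 105 kb upstream, at the starts of Prdm10 and 4930517E14Rik (fold enrichment 5.04, 14 fragments).

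Ino80c, the partner of Actr5 in the complex, is at chr18:24104757-24121953 on the minus strand. Its nearest summit was 84.0 kb upstream at Galnt1 (fold enrichment 5.92, 14 fragments). Each of these 5 nearest summits lay within 1000 bp of a start of another gene, and 84.8% of all summits in the list lay that close to some start.

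**Figure D3:**
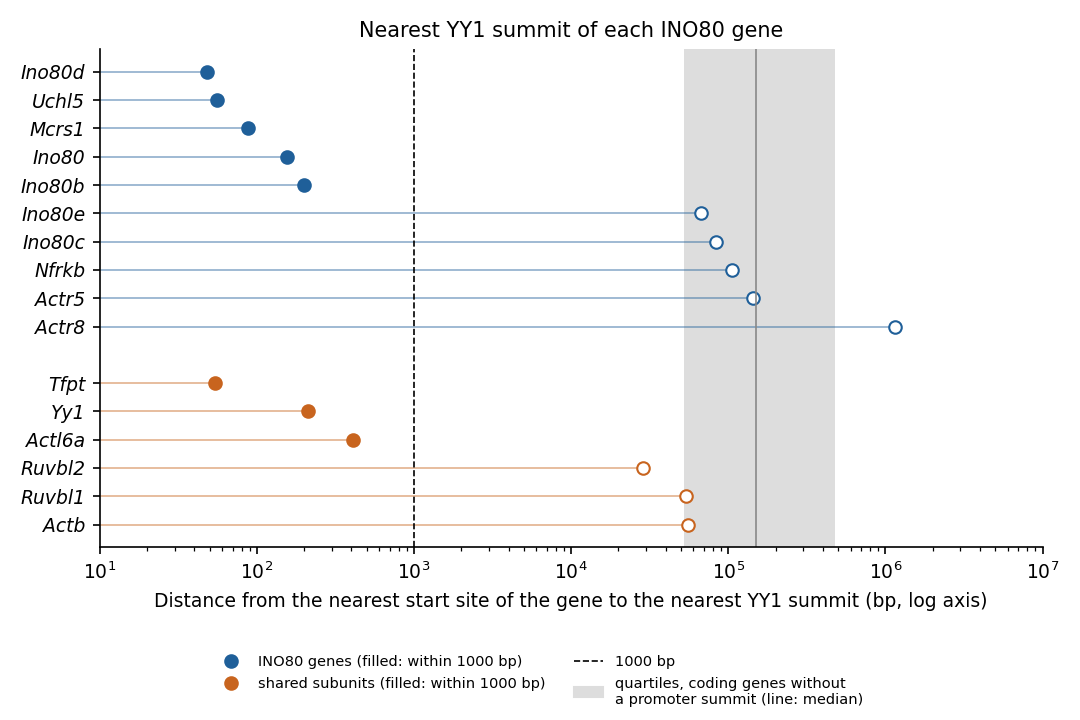
Distance from the nearest start of each INO80 gene (blue) and each gene of the list of mostly shared subunits (orange) to the nearest YY1 summit, on a log axis in bp. Filled points are within 1000 bp (dashed line), and the grey band and line are the quartiles and median over the 17819 protein-coding genes without a promoter summit. The INO80 genes fall into 5 at 48 to 199 bp and 5 at 67.1 to 1151 kb, with no gene in between.

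The median distance of the 5 unbound genes to a summit was 105 kb, against 150 kb (quartiles 52.0 and 478 kb) over the 17819 protein-coding genes without a promoter summit. Of those genes, 69.4% had a more distant summit than Ino80e, 63.98% than Ino80c, 58.6% than Nfrkb and 51.0% than Actr5. Actr8 stood at the other end, with 11.0% farther away. No gene changed between bound and unbound with a window of 500, 2000 or 5000 bp, with the starts of RefSeq transcripts, or with any overlap of the peak and the window.

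What an unlisted promoter means depends on depth. At the most frequent local background, 1.54 fragments (1370 peaks), a summit needed 8 fragments, a fold enrichment of 3.54, to pass the limit on p, and no peak in the list had fewer than 8. The fold enrichment needed falls as the background rises, and at the 3.95 of the Mcrs1 peak, 13 fragments or 2.83 were needed. The background at Ino80c, Ino80e, Nfrkb, Actr5 and Actr8 is not in the list, so the enrichment that could have been missed there is unknown. Repeated sequence, where placing a read can be uncertain, was measured as the share of 50-base stretches near the starts with another exact copy elsewhere in the genome. The reads of the study were longer than these stretches, so a copied stretch need not have kept a read from being placed. The share was 0% at Nfrkb and Actr8, 0.724% at Ino80e, 3.38% at Actr5 and 5.53% at Ino80c. Of the bound genes, Mcrs1 had 18.3%, with 0% in the peak itself, and the other 4 had 0%.

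The 6 further genes of a list encode subunits that INO80 shares with other machines or that are less constant members of it. Of these, 3 had a promoter summit, beside 18.8% of all protein-coding genes and 33.6% of those with a CpG-rich start. At a fold enrichment of at least 5, only Tfpt of the 6 had a promoter summit, beside 11.1% of all protein-coding genes. Tfpt, found in the animal complex, had a fold enrichment of 6.30 (3.76 to 9.997, 16 fragments) with a summit 54 bp downstream of its start, which it shared with the splicing factor gene Prpf31. Actl6a, an actin-related protein also of SWI/SNF and TIP60, had 4.34 (2.29 to 7.65, 10 fragments) with a summit 410 bp downstream, in an intron. Yy1 itself had 3.64 (2.20 to 5.70, 17 fragments over 3.95) with a summit 211 bp upstream, and that summit was only 19 bp from the start of Gm34220 on the opposite strand. Ruvbl1 and Ruvbl2, the paired ring ATPases, and Actb, cytoplasmic actin, had none, with the nearest summit at 53.5, 28.8 and 55.2 kb.

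Yy1 carried another peak beyond the promoter window, in intron 1 at chr12:108793675-108794517. Its summit at 108794318 was 1345 bp downstream of the start, with 19 fragments over 1.98 and a fold enrichment of 6.72 (4.18 to 10.3, q = 1.85e-09). The interval overlapped that of the Yy1 promoter peak. This peak was 843 bp wide, against a median of 363 bp over promoter peaks, so it had more room for matches. It held 4 matches to AANATGGC, the highest number in any peak of the list, which 2 peaks reached. Of the 4681 peaks, 12.97% held at least 1. All 4 lay within 81 to 171 bp of the summit, on its upstream side. The stretch that holds them, chr12:108794133-108794250 on the plus strand of GRCm38.p6, is shown with the matches in capitals, since no peak of the list held more.
Yy1 intron 1: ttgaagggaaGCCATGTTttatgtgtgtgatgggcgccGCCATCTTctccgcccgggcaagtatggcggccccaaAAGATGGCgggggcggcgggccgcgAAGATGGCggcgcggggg

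Genes of other remodelling complexes were counted by the same rule. Promoter summits were found at 4 of 6 genes of SRCAP, 11 of 12 of TIP60/EP400, 17 of 23 of SWI/SNF and 7 of 10 of ISWI, beside 5 of 10 for INO80. At a fold enrichment of at least 5, the other complexes together fell from 39 to 22 of 51 genes and INO80 to 4 of 10. The share of all protein-coding genes fell from 18.8% to 11.1% at that limit. All of these genes have CpG-rich starts, as the INO80 genes do. The exact interval of the INO80 share, 18.7% to 81.3%, overlapped that of each other complex, including TIP60/EP400 with 61.5% to 99.8%, and differences between the complexes were not tested. The median fold enrichment at bound genes was 5.54 for INO80, 3.80 for SRCAP, 5.43 for TIP60/EP400, 5.13 for SWI/SNF and 6.70 for ISWI. The highest member peak of each was Yeats4 with 6.70, Ep400 with 7.68, Smarca4 with 7.61 and Pole3 with 9.86, all above the 6.39 of Ino80.

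**Figure D4:**
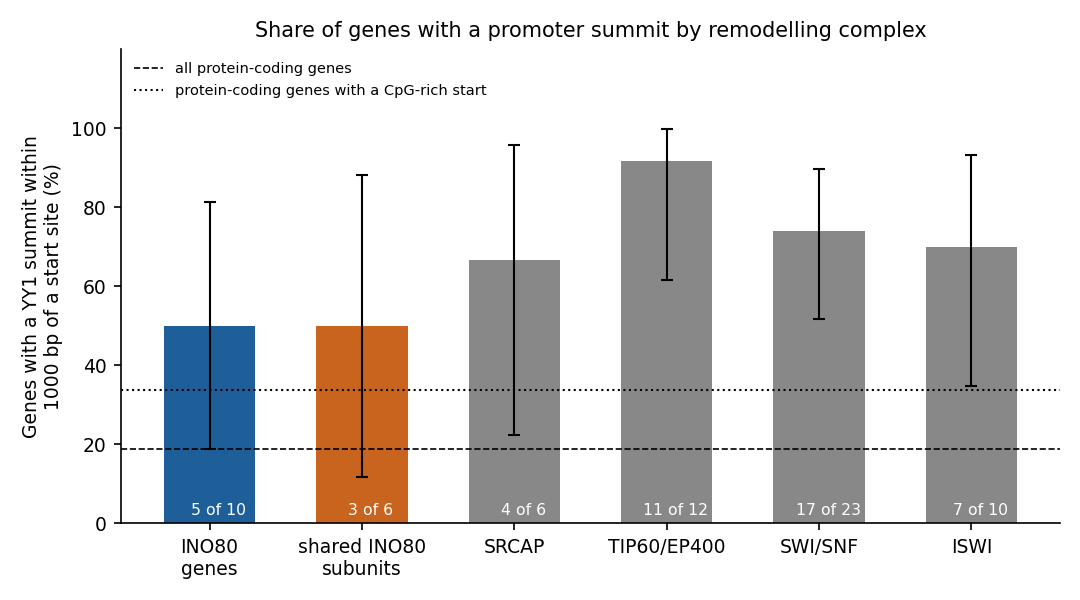
Percentage of the genes of each remodelling complex with a YY1 summit within 1000 bp of a start, with 95% exact binomial intervals as error bars and the counts printed in the bars. The dashed and dotted lines give the 18.8% of all protein-coding genes and the 33.6% of those with a CpG-rich start. The INO80 bar stands at 50% with an interval from 18.7% to 81.3%.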

How the data were processed

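YY1 ChIP-seq of 1 library of mixed MuSCs was used. According to the Methods, the authors trimmed reads, aligned these by bowtie2 to mm10, removed redundant reads and used MACS2 to call peaks against the background library at a p-value limit of 0.0001 (the versions are not given in the sources used here). The deposited list gives for each peak the fold enrichment (a ratio of the fragments at the summit to the local background, with 1 added to each), the −log10 p-value and the −log10 q-value, and its integer score was not used. These p-values describe 1 pair of libraries. Fragments and background were recovered from the fold enrichment and p-value, and a whole number matched −log10 p within 0.001 for all 4681 peaks. Depth was not varied, so whether deeper sequencing would have let weaker sites pass was not tested.

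Summits were placed against the starts of the GENCODE basic annotation (M21, GRCm38), and sequence was read from RefSeq GRCm38.p6. Shares have Clopper-Pearson intervals. No test was run, since there is 1 library. The genes named are the members, the shared subunits, the genes at their summits and the strongest gene of each other complex. The members and lists were chosen with earlier results of these data known. CpG-rich starts, repeated stretches, the genes with the motif at a start and the intron peak of Yy1 were examined after the data were seen. On simulated data, 2000 of 2000 summits were placed correctly, and 200 of 200 planted motifs were found. Software was scipy 1.17.1, pandas 2.3.3, numpy 2.4.6 and matplotlib 3.10.9 under Python 3.11.15. The alternatives were other limits, windows, annotations and motif forms.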

Additional observations from a re-analysis of the deposited data

How the results depend on the processing

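No paired analysis was possible because YY1 was profiled in 1 library, so no replicate could be left out either. The count of 5 INO80 genes with a promoter summit ranged from 4 to 5 over 11 alternatives, with Mcrs1 the gene that was lost at a fold enrichment of at least 5 and at q below 0.05 or 0.01. The median fold enrichment was 5.54 under the 3 alternatives tried, and the value of each of the 5 peaks was the same with the nearest peak. These values could not change, since each of the 5 genes had 1 promoter summit, within 500 bp of a start. No further summit lay within 2000 bp of their starts. Counts were taken as moved beyond 1.5 times, and shares of all genes or summits beyond their narrow 95% interval, so small moves of a share are listed while the other complexes at 28 of 51 (1000 bp upstream to 100 bp downstream) and 33 (gene starts alone) stayed within the limit. At a fold enrichment of at least 5, protein-coding genes with a promoter summit came to 11.1% and with a summit inside the gene to 7.47%, the shared subunits to 1 and the other complexes to 22 of 51 (from 39). At q below 0.01, the shares of protein-coding genes were 17.4% and 12.5%. The promoter share was 17.7% at 500 bp, 19.3% at 2000 bp, 20.4% at 5000 bp, 14.6% from 1000 bp upstream to 100 bp downstream and 17.4% from gene starts alone, where the median distance of the INO80 summits was 156 bp. Summits inside the gene but outside promoter windows fell to 0 INO80 genes and 1.42% of protein-coding genes, and any overlap of the peak with the gene gave 5 and 18.8%, by construction of the rule. For AANATGGC, 1 INO80 peak held it within 200 bp and in the whole peak, against 13.6% and 14.4% of promoter peaks, and the share over all was 3.88% within 50 bp, 31.0% for the core ATGGC and 3.95% for AAGATGGC. Peaks with fewer than 8 fragments at the summit could not be listed, and all intervals cover counting error only. Those on the fold enrichment also leave out any error of the background, which was held fixed.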
